A study of Mus musculus with 2 samples.

Results

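Oxidative phosphorylation genes were examined in bone marrow granulocyte-monocyte progenitors (GMPs) from tumor-free mice and from mice bearing 4T1 tumors. The members were taken by gene name: symbols beginning with Ndufa, Ndufb, Ndufc, Ndufs or Ndufv for complex I, Sdha to Sdhd for complex II, Uqcr for complex III, Cox4 to Cox8 for complex IV and Atp5 for complex V, without assembly factors named Ndufaf and without pseudogenes. This gave 85 of 24421 gene symbols, with 38 in complex I, 4 in complex II, 8 in complex III, 18 in complex IV and 17 in complex V. A total of 78 members had a mean of at least 1 RPKM (reads per kilobase of gene, scaled to the library) over both libraries and were compared, and the other 7 were below that level. The name rule also took in 3 genes whose products are not subunits, namely Atp5s, Atp5sl and Cox7a2l, the last encoding a factor that holds complexes III and IV together. The subunits encoded by mitochondrial DNA are not among these symbols and were not analysed here.

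Oxidative phosphorylation takes place at the inner mitochondrial membrane. Complex I oxidizes NADH and complex II oxidizes succinate, and both pass electrons to ubiquinone, complex III passes them on to cytochrome c, and complex IV hands them to oxygen. Complexes I, III and IV pump protons, and complex V, the ATP synthase, lets the protons flow back and makes ATP. Dihydroorotate dehydrogenase (DHODH), the enzyme of pyrimidine synthesis that brequinar inhibits, sits in the same membrane and gives its electrons to ubiquinone, so that its activity depends on complexes III and IV.

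A library of total RNA came from GMPs of non-tumor-bearing female mice (NTB-GMP). The other came from GMPs of female mice that carried 4T1 cells, a mouse mammary carcinoma line, implanted orthotopically (4T1-GMP). In both groups the labels give the background as F1 semi-syngeneic (H-2b/d) and the cells as purified by flow cytometry straight from the marrow, without an age, a count of pooled mice or the gate. The reads recovered from the deposited RPKM came to at least 9486697 in NTB-GMP and 26353075 in 4T1-GMP, and the divisor behind the RPKM was 2.95 times as large in 4T1-GMP. With 1 library per group there was no replicate error and no test. Intervals below are 95% Clopper-Pearson intervals on reads, compare these libraries and not the conditions, and cover counting error only, as PCR copies were not told apart from independent molecules. Ratios are log2 of (RPKM + 0.1) in 4T1-GMP over that in NTB-GMP, a scale that understates differences of low genes.

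The labelled cell type was checked against its markers. The GMP granule genes were high in both libraries, with Mpo at 5162 RPKM in NTB-GMP and 5625 in 4T1-GMP, and the 10 GMP markers summed to 10229 and 15224 RPKM, with 7 higher and with Kit, Cd34 and Fcgr3 lower in 4T1-GMP. All 10 markers of maturing neutrophils were higher in 4T1-GMP, from a summed 122 to 497 RPKM, and all 8 markers of monocytes and dendritic cells that reached 1 RPKM were lower, from a summed 152 to 33.6 RPKM over the 10 listed. The 8 stem and early progenitor markers summed to 96.8 and 64.6 RPKM, with 3 of the 4 that reached 1 RPKM lower. The 8 erythroid markers summed to 45.8 and 74.2 RPKM, most of it the transferrin receptor gene Tfrc, with the globin genes Hba-a1 and Hbb-bs at 0 in both. The 6 lymphoid markers summed to 191 and 337 RPKM, nearly all of it Nkg7, and the 5 epithelial markers to 18.3 and 10.1 RPKM, with Epcam and Krt19 at 0 in both libraries. These markers moved with the groups, and their part in the differences described here was not tested. In bulk RNA, fewer cells of a type and less RNA per cell cannot be told apart.

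The oxidative phosphorylation genes were, as a list, modestly higher in 4T1-GMP. Of the 78 members compared, 73 (93.6%) were higher in 4T1-GMP, against 54.7% of the 10378 genes with a mean of at least 1 RPKM. Their median log2 ratio was 0.35 (interquartile range 0.20 to 0.50), a 1.27-fold difference, against a median of 0.05 (interquartile range -0.26 to 0.32) over all genes. By at least 1.2-fold, 53 members were higher and 2 were lower, against 30.0% and 24.9% of all genes, and 23 members lay within 1.2-fold. The summed level of the 78 members was 7764 RPKM in NTB-GMP against 9996 in 4T1-GMP. The counting interval of the ratio lay above 0 for 66 members, below 0 for 3 and included 0 for 9.

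**Figure D1:**
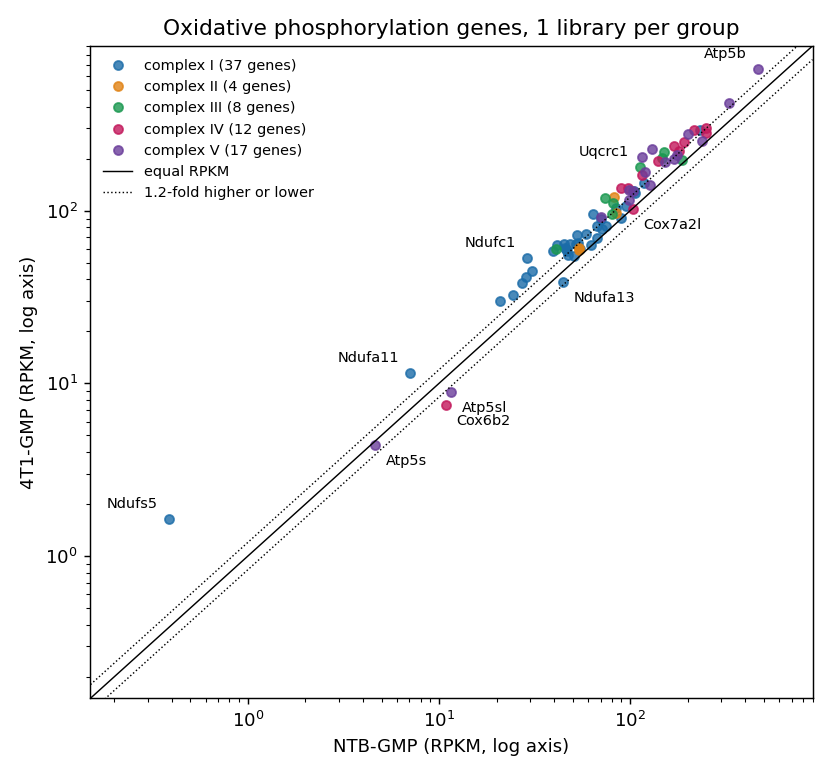
RPKM of the 78 members in NTB-GMP (horizontal) and 4T1-GMP (vertical), both on log axes, with 1 point per gene colored by complex, a solid line of equal levels and dotted lines at 1.2-fold. Most points lie above the solid line, 53 of them on or above the upper dotted line, and Cox6b2 and Atp5sl lie below the lower one.

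The size of this difference depended on how the libraries were scaled. Rn45s, a precursor of ribosomal RNA, took 17% of the divisor in NTB-GMP and 6.98% in 4T1-GMP. Taking its reads out of both divisors moved every log2 ratio by about -0.16. The divisors are not plain read totals and may be scaled, so the scale without Rn45s reads is approximate. On that scale 62 members (79.5%) were higher against 39.2% of all genes, 30 were higher by at least 1.2-fold, and the median was 0.19 against -0.11 for all genes, a shift common to all genes that leaves the gap of 0.30 between the members and all genes as it was. Quantile normalization, which forces the same distribution on both libraries, gave 57 members higher (73.1%) against 50.5% of all genes, 20 members higher by at least 1.2-fold, a median of 0.10 and a gap of 0.10. Highly expressed genes in general were higher in 4T1-GMP: in the 25% of genes with the highest mean RPKM, which held 72 of the members, 74.6% of genes were higher and the median log2 ratio was 0.20, and the 72 members had a median of 0.35, with 70 higher. In the 25% with the shortest transcripts, which held 64 members, 66.3% of genes were higher with a median of 0.18, and the 64 members had a median of 0.35, with 60 higher.

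**Figure D2:**
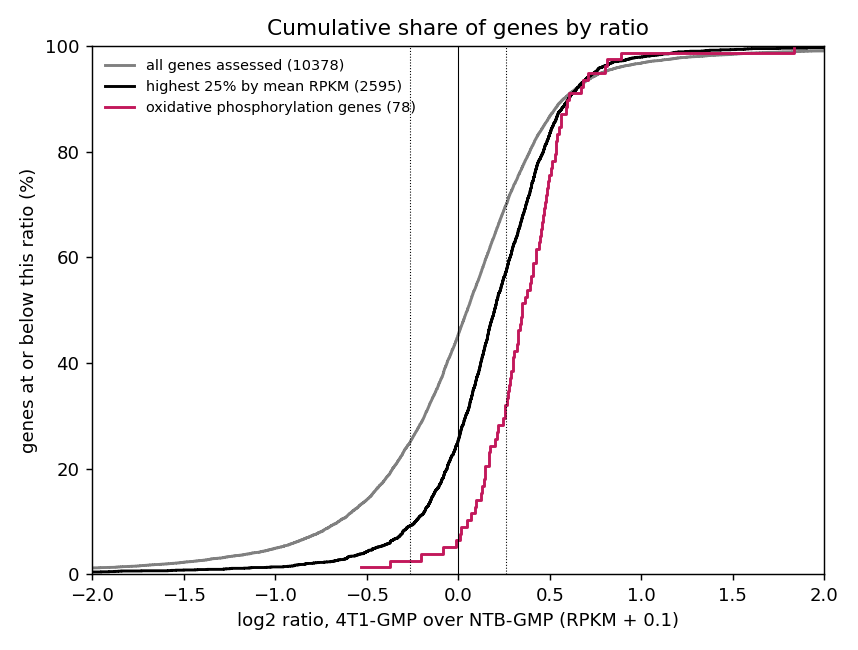
Cumulative percent of genes (vertical) at or below each log2 ratio of 4T1-GMP over NTB-GMP (horizontal) for all 10378 genes, the 25% with the highest mean RPKM and the 78 members, with dotted lines at 1.2-fold. The curve of the members lies to the right of both others through its middle, with medians of 0.35, 0.20 and 0.05 for members, the highest 25% and all genes.

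The order of the genes by level was nearly the same in both libraries, with a Spearman correlation of 0.98 over the 78 members, which share the 2 libraries. Across the members, the ratio had a Spearman correlation of 0.004 with the mean RPKM (n = 78). Atp5b and Atp5a1, the beta and alpha subunits that form the catalytic head of the ATP synthase, were the most highly expressed members in both libraries, and among the other complexes the highest were Cox8a, Cox4i1, Ndufa4, Uqcrh, Uqcrb, Sdhd and Sdha.

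**Figure D3:**
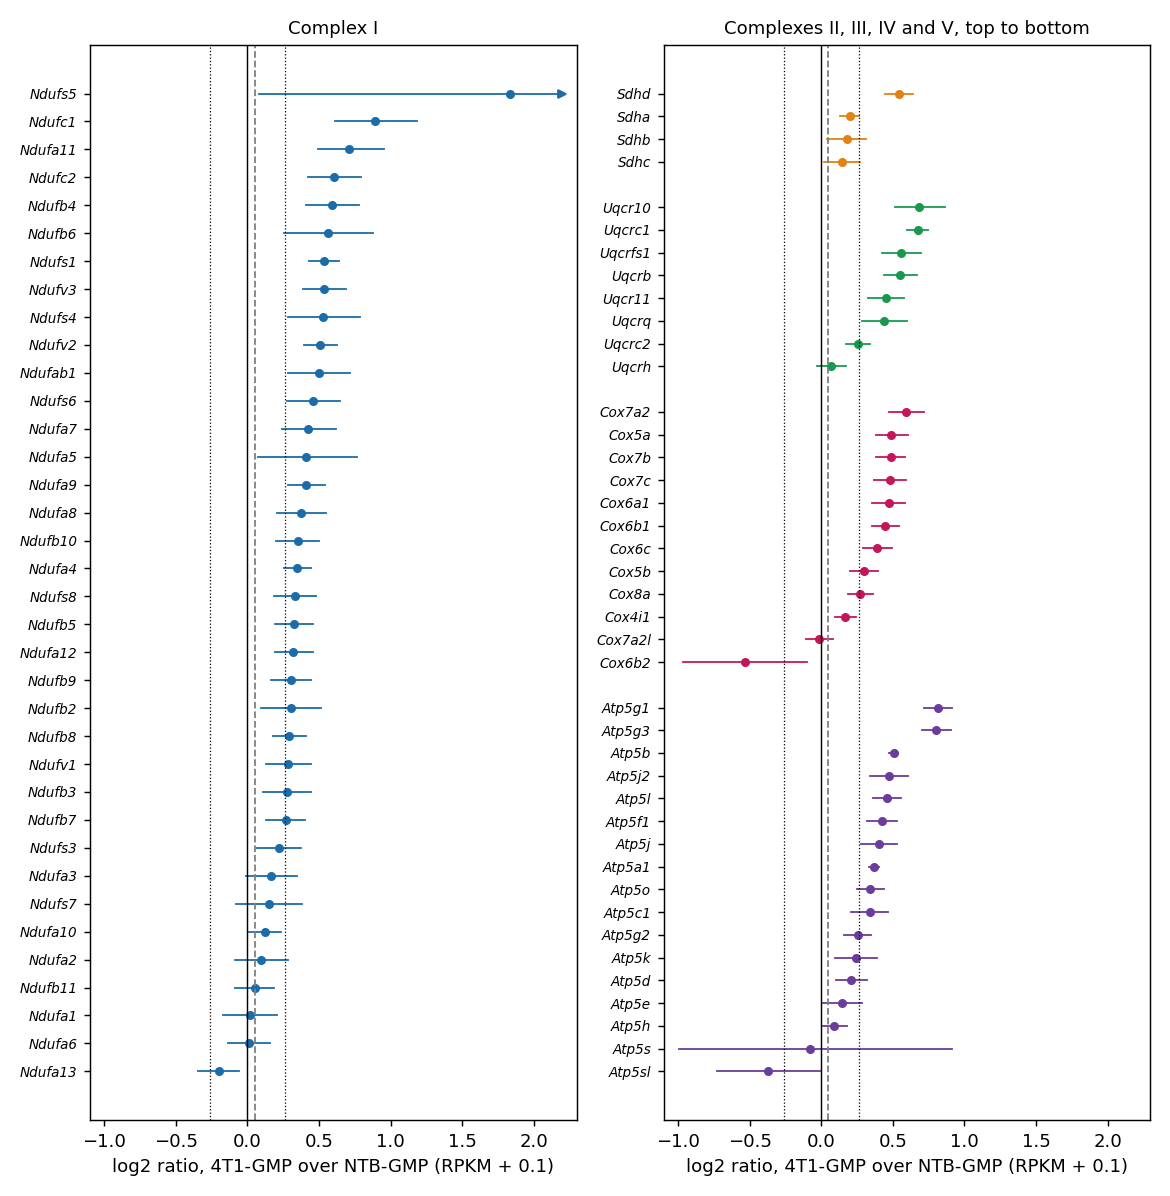
Log2 ratio of 4T1-GMP over NTB-GMP (horizontal) for 77 of the 78 members, sorted within each complex, with horizontal bars for the 95% Clopper-Pearson interval on reads (counting error only), a dashed line at the median of all genes (0.05) and dotted lines at 1.2-fold. The interval of Ndufs5 runs beyond the axis, to 5.21. On the scale without Rn45s reads every point moves left by about 0.16.

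Complex I, the NADH dehydrogenase and the entry point for most electrons, had a median log2 ratio of 0.33 over its 37 compared members. Of these, 36 were higher and 27 were higher by at least 1.2-fold, against 54.7% and 30.0% of all genes. The median of complex I was 0.17 without Rn45s reads and 0.10 after quantile normalization. All 7 core subunits, among them those that carry the flavin and the iron-sulfur clusters, were higher as deposited, with a median of 0.29. Among them Ndufs1, the largest iron-sulfur subunit, had 30.8 RPKM in NTB-GMP and 44.7 in 4T1-GMP (log2 ratio 0.54), and Ndufv2 had 44.8 and 63.9 RPKM (0.51). Ndufv1, which binds NADH and flavin, had 53.1 and 64.8 RPKM (0.29), and Ndufs8 had 46.8 and 58.8 RPKM (0.33). Ndufs3 and Ndufs7 were within 1.2-fold, with log2 ratios of 0.22 and 0.15, and Ndufs7 was lower without Rn45s reads and after quantile normalization. On each of these scales 5 of the 7 core subunits were higher.

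The 30 accessory subunits that were compared, which surround the core of complex I, had a median of 0.35. Of these, 23 were higher by at least 1.2-fold, against 30.0% of all genes. The largest ratio was that of Ndufs5, but it rested on few reads, with 0.386 RPKM from 2 reads in NTB-GMP and 1.64 RPKM from 25 reads in 4T1-GMP (log2 ratio 1.84, interval 0.08 to 5.21). A pseudogene of Ndufs5, BC002163, matches it at 99.4% identity over 60.8% of its length and was listed at 4.09 and 3.62 RPKM, so reads of the pair may have been divided between them and the value is uncertain. Ndufc1 had 28.7 RPKM in NTB-GMP against 53.3 in 4T1-GMP (log2 ratio 0.89, interval 0.61 to 1.18), the largest difference in complex I among genes with at least 100 reads. Ndufa11 had 7.01 and 11.5 RPKM (0.71, interval 0.49 to 0.95), and its exons overlap those of Vmac on the other strand. At the other end, Ndufa13 was the only compared member of complex I that was lower as deposited, with 44.6 RPKM in NTB-GMP and 38.8 in 4T1-GMP (-0.20, interval -0.34 to -0.06), and it overlaps Tssk6 on the other strand. Ndufa6 had 89.6 and 90.3 RPKM (0.01, interval -0.13 to 0.16) and Ndufa1 had 62.8 and 63.5 RPKM (0.02, interval -0.17 to 0.21), and both were lower once the ratios were centered on the median of all genes. By name, 9 of 10 Ndufb genes and both Ndufc genes were higher by at least 1.2-fold, and 8 of the 14 Ndufa genes compared were.

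Complex II, succinate dehydrogenase, had the lowest median of the 5 complexes. Its 4 subunits are all encoded in the nucleus and also serve the tricarboxylic acid cycle, and its median log2 ratio was 0.19, which fell to 0.024 without Rn45s reads and to -0.021 after quantile normalization. The flavoprotein gene Sdha had 84.1 RPKM in NTB-GMP and 96.6 in 4T1-GMP (log2 ratio 0.20, interval 0.13 to 0.26). The iron-sulfur subunit gene Sdhb had 53.9 and 60.9 RPKM (0.18, interval 0.04 to 0.31), and the membrane anchor gene Sdhc had 53.7 and 59.4 RPKM (0.14, interval 0.02 to 0.27). These 3 were within 1.2-fold and all were lower after quantile normalization, as Sdhc was without Rn45s reads. The other anchor gene, Sdhd, stood above them, with 82.8 and 121 RPKM (0.54, interval 0.45 to 0.64).

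Complex III had the highest median of the 5 complexes, 0.50 as deposited, 0.34 without Rn45s reads and 0.25 after quantile normalization, which was the only scaling tried that could change their order. All 8 members were higher as deposited and 6 were higher by at least 1.2-fold, against 54.7% and 30.0% of all genes. Uqcr10, a small subunit, had 73.5 RPKM in NTB-GMP against 118 in 4T1-GMP (log2 ratio 0.68, interval 0.51 to 0.86). Uqcrc1, a core protein on the matrix side, had 113 and 179 RPKM (0.67, interval 0.60 to 0.75), and the Rieske iron-sulfur protein gene Uqcrfs1 had 40.8 and 60.1 RPKM (0.56, interval 0.43 to 0.70). The small subunit gene Uqcrb had 150.0 and 219.9 RPKM (0.55). The smallest ratios were those of Uqcr11 and Uqcrq at 0.45 and 0.44, of the other core protein, Uqcrc2, with 80.2 and 95.7 RPKM (0.25, interval 0.17 to 0.34), and of Uqcrh, the hinge protein gene, with 187 and 197 RPKM (0.07, interval -0.03 to 0.17). Uqcrh was lower both without Rn45s reads and after quantile normalization. Cyc1 and Cycs, which the name rule did not take in, were also higher in 4T1-GMP. Cyc1, the cytochrome c1 subunit of complex III, had 52.0 and 93.6 RPKM (0.85, interval 0.72 to 0.97). It is not part of the count and median of complex III given here. Cycs, cytochrome c itself, had 60.2 and 97.5 RPKM (0.69, interval 0.50 to 0.89).

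Complex IV, cytochrome c oxidase, has several subunits with tissue-restricted isoforms. Its 12 compared members had a median log2 ratio of 0.42, which was 0.26 without Rn45s reads and 0.15 after quantile normalization. Of the 12, 10 were higher as deposited, against 54.7% of all genes, and 30.0% of all genes were higher by at least 1.2-fold. The 10 commonly expressed members were all higher as deposited, 9 of them by at least 1.2-fold, with a median of 0.46, and 8 were higher after quantile normalization. Cox7a2 had 89.8 RPKM in NTB-GMP against 136 in 4T1-GMP (log2 ratio 0.59, interval 0.48 to 0.72). Cox5a had 115 and 162 RPKM (0.49, interval 0.38 to 0.60), Cox7b had 97.1 and 136 RPKM (0.48), Cox6a1 had 140.1 and 194 RPKM (0.47), and Cox6b1 had 215 and 293 RPKM (0.45). The pair with the highest levels differed least: Cox8a had 248 and 299.8 RPKM (0.27, interval 0.18 to 0.36) and Cox4i1, which overlaps Emc8 on the other strand, had 250.3 and 281 RPKM (0.17, interval 0.09 to 0.24), and both were lower after quantile normalization.

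The isoforms that are restricted to other tissues were low or at 0. Cox7b2, Cox8b, Cox8c and Ndufa4l2, a paralog of Ndufa4, were listed at 0 in both libraries. Cox4i2 was listed at 0.135 RPKM in NTB-GMP (1 read) and 0 in 4T1-GMP. Cox6a2, the muscle isoform, was listed at 0 in NTB-GMP and at 0.0506 RPKM in 4T1-GMP (1 read). Cox7a1, another muscle isoform, had 1.07 and 0.364 RPKM from 2 reads in each. These counts are at or below 3 reads, too few to show a difference. Cox6b2, known as the testis isoform of Cox6b1, was the exception, with 10.8 RPKM in NTB-GMP (from 68 reads) against 7.45 in 4T1-GMP (from 138), which gave a log2 ratio of -0.53 (interval -0.97 to -0.10). Its share of the summed Cox6b1 and Cox6b2 level was 4.80% in NTB-GMP and 2.48% in 4T1-GMP.

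The related Cox7a2l had 103 RPKM in NTB-GMP against 102 in 4T1-GMP (log2 ratio -0.01, interval -0.11 to 0.08). As Cox7a2 was higher in 4T1-GMP, Cox7a2 made up 46.3% of the summed level of Cox7a1, Cox7a2 and Cox7a2l in NTB-GMP and 57.0% in 4T1-GMP. Ndufa4, which is named for complex I but is now known as a complex IV subunit, had 231 and 294 RPKM (0.35, interval 0.26 to 0.44).

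Complex V had a median log2 ratio of 0.34 over 17 members, with medians of 0.18 without Rn45s reads and 0.10 after quantile normalization. As deposited, 15 were higher and 10 were higher by at least 1.2-fold, against 54.7% and 30.0% of all genes. The catalytic head genes were led by Atp5b, with 465 RPKM in NTB-GMP and 660.2 in 4T1-GMP (log2 ratio 0.51, interval 0.47 to 0.54), and Atp5a1, with 327 and 422 RPKM (0.37, interval 0.33 to 0.40). Atp5a1 overlaps Haus1 on the other strand. The smaller head subunit Atp5e had 127 and 140.4 RPKM (0.14, interval 0.0025 to 0.29), and the stalk subunit Atp5h had 238 and 253 RPKM (0.09, interval 0.0042 to 0.18), and both were lower without Rn45s reads and after quantile normalization. As deposited, the only lower genes of the Atp5 name group were those whose products are not subunits: Atp5sl had 11.5 and 8.86 RPKM (-0.37, interval -0.73 to -0.01), and Atp5s had 4.63 and 4.37 RPKM from 14 and 39 reads (-0.08, interval -0.99 to 0.91), and Atp5s was higher after quantile normalization.

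The c ring, the rotor of the ATP synthase, is encoded by 3 genes whose mature proteins are the same and which differ in the leader peptide that is cut off on import. In the GENCODE M21 annotation of GRCm38 they lie on chromosome 11 from 96068852 to 96075670 (Atp5g1), chromosome 15 from 102662864 to 102672352 (Atp5g2) and chromosome 2 from 73908447 to 73911326 (Atp5g3), all on the minus strand. Atp5g1 had 116 RPKM in NTB-GMP against 204 in 4T1-GMP (log2 ratio 0.81, interval 0.72 to 0.91). Atp5g3 had 130.4 and 228 RPKM (0.80, interval 0.70 to 0.91). Atp5g2 had 176 and 210.5 RPKM (0.25, interval 0.16 to 0.35). The interval of Atp5g2 did not overlap those of its paralogs. The summed level was 423 RPKM in NTB-GMP against 642 in 4T1-GMP, and the share of Atp5g2, the most abundant of the 3 in NTB-GMP, was 41.7% there and 32.8% in 4T1-GMP. Atp5g1 and Atp5g2 each have pseudogenes that match them at 98% identity or more over at least 50% of their length, so some of their reads may have been lost or misplaced. The same limit holds for Ndufs3, Uqcrb and Atp5h, which are named above.

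**Figure D4:**
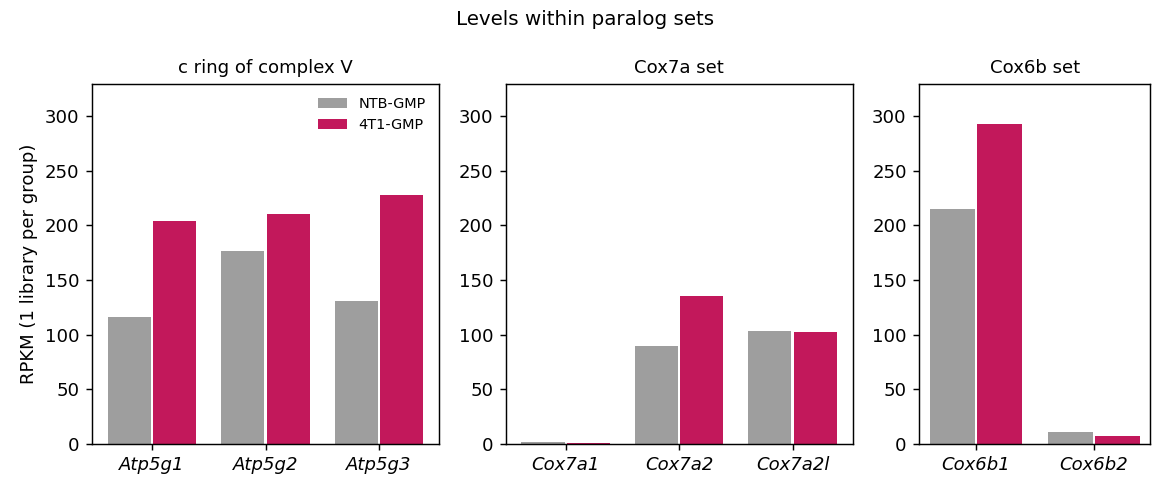
RPKM in NTB-GMP (gray) and 4T1-GMP (magenta), 1 library each, for the c ring genes, the Cox7a set and the Cox6b set, on a common vertical axis that starts at 0. Atp5g1 and Atp5g3 differ between the libraries by more than Atp5g2, Cox7a2 is higher in 4T1-GMP while Cox7a2l stands at 103 and 102 RPKM, and Cox6b2 is low beside Cox6b1.

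Promoters of respiratory chain genes are known to carry sites for NRF1, for GABPA and related ETS factors, and for YY1. The RefSeq promoter table of GRCm38.p6, which gives 250 bases before and 50 bases after the start, held a promoter for 70 of the 85 members. The letters GCGCANGCG, the core of the NRF1 site, were found on either strand in 20 of these members (28.6%), against 7.03% of all 27025 genes of the table, counted in the same way by any promoter of the gene, and 6.25% of its 32851 promoters. The ETS letters CCGGAAG were found in 16 members (22.9%, against 9.93% of genes and 8.86% of promoters), and the YY1 letters AAGATGGCG in 8 (11.4%, against 1.64% of genes and 1.40% of promoters). The median log2 ratios of members with and without the letters were 0.43 and 0.33 for NRF1, 0.30 and 0.37 for GABPA, and 0.43 and 0.34 for YY1. The shares of all genes include genes not expressed in these cells, and shares over expressed genes alone were not counted. A match is a description of the sequence and not a bound site. Below are the 130 bases before the start of 3 members whose window holds no annotated exon of the gene, with NRF1 and ETS letters in capitals and each written 5′ to 3′ on the strand of the gene. Ndufa11 and Sdhd are shown as the members of complexes I and II with the largest ratio, among those with at least 100 reads, that hold such letters in this window, and Atp5g3 as a c ring gene. Atp5g3 is counted above for NRF1 letters that lie elsewhere in its promoter, outside the bases printed.
Ndufa11, chr17:56717632-56717761, plus strand: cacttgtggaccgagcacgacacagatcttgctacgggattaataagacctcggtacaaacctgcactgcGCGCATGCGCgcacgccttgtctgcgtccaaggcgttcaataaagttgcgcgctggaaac
Sdhd, chr9:50603850-50603979, minus strand: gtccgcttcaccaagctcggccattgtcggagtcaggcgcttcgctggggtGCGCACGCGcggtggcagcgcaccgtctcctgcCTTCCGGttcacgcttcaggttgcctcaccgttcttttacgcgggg
Atp5g3, chr2:73911327-73911456, minus strand: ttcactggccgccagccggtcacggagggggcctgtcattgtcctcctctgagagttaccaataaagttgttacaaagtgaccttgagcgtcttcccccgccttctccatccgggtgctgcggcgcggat

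In Ndufa11 the capitals are NRF1 letters on both strands, which begin 60 bases before the start. In Sdhd the NRF1 letters begin 79 bases and the ETS letters, on the other strand, 46 bases before the start.

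The genes that build and feed the chain were described from lists written from knowledge of the pathways. Among enzymes that pass electrons to ubiquinone, Dhodh had 11.2 RPKM in NTB-GMP and 13.6 in 4T1-GMP (log2 ratio 0.28, interval 0.08 to 0.48), below the median of the oxidative phosphorylation genes as deposited. After quantile normalization the order was the other way, with Dhodh at 0.26 and the median at 0.10. Of the 6 such enzymes, 5 were higher as deposited and 4 without Rn45s reads or after quantile normalization, with Gpd2, the mitochondrial glycerol 3-phosphate dehydrogenase, at 15.5 and 21.0 RPKM (0.43) and Chdh, choline dehydrogenase, at 47.6 and 33.9 RPKM (-0.49). The 13 ubiquinone synthesis genes had a median of 0.40, with 11 higher and 8 higher by at least 1.2-fold, against 54.7% and 30.0% of all genes. Without Rn45s reads the median was 0.24, with 9 higher, against 39.2% of all genes. After quantile normalization it was 0.40, with 10 higher, against 50.5% of all genes. By ratio, the synthesis genes ranged from Coq7, the hydroxylase near the end of the pathway, to Coq10a. Coq7 had 6.80 and 11.3 RPKM (0.73, interval 0.43 to 1.06). Coq10a had 2.55 and 1.90 RPKM (-0.40, interval -0.86 to 0.02, which includes 0).

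Assembly factors differed by complex. For comparison, 54.7% of all genes were higher as deposited, 39.2% without Rn45s reads and 50.5% after quantile normalization. The 14 factors of complex I had a median of 0.34, with 11 higher, and ranged from Ecsit (0.51) to Ndufaf7 (-0.27). The values were 0.17 and 10 without Rn45s reads and 0.37 and 11 after quantile normalization. The 4 of complex II had a median of 0.47, above that of the subunits they assemble, and all were higher as deposited and under each scaling, from Sdhaf1 (0.64) to Sdhaf4 (0.22). The counting intervals of Sdhaf3 (-0.49 to 1.49) and Sdhaf4 (-0.17 to 0.63) included 0. The 5 of complex III that were compared had a median of -0.07. Only Uqcc1 was higher (0.10, interval -0.07 to 0.27), and it was lower without Rn45s reads. Ttc19 was at -0.26 (interval -0.59 to 0.07). The complex with the highest median among subunits thus had the lowest among assembly factors. But the counting interval of each of these 5 factors included 0, so their direction was not resolved. The 19 of complex IV had a median of 0.28, with 17 higher, and ranged from the copper chaperone gene Sco2 (0.95) to Cox20 (-0.43). The values were 0.12 and 12 without Rn45s reads and 0.27 and 16 after quantile normalization. The 3 of complex V were all higher, from Atpaf1 (0.45) to Tmem70 (0.14, and lower without Rn45s reads). Their median was 0.39, which was 0.22 without Rn45s reads and 0.34 after quantile normalization. For complexes I, IV and V the medians of the factors after quantile normalization lay above those of the subunits (0.10, 0.15 and 0.10). As deposited, the factors of complex IV lay below the subunits (0.28 against 0.42). Of the carriers, channels and kinase that move or balance ATP, 7 of 8 were higher with a median of 0.42, against 5 of 8 both without Rn45s reads (0.26) and after quantile normalization (0.18), ranging from Vdac2 (0.70) to the uncoupling protein gene Ucp2 (-0.18).

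Among lists outside the chain, the 77 mitochondrial ribosomal protein genes had a median of 0.39, with 74 higher and 51 higher by at least 1.2-fold, close as deposited to the values of the oxidative phosphorylation genes. The 81 cytoplasmic ribosomal protein genes, which are expressed far more highly, had a median of 0.04. Of these, 52 (64.2%) were higher, against 54.7% of all genes, and 8 were higher by at least 1.2-fold, against 30.0%. Without Rn45s reads the medians were 0.23 and -0.13, with 59 and 20 genes higher, against 39.2% of all genes. After quantile normalization they were 0.26 and -0.10, with 64 and 19 higher, against 50.5% of all genes. All 13 genes of the tricarboxylic acid cycle were higher as deposited, with a median of 0.34, from Idh3a (0.81) to Ogdh (0.02), and 8 of the 13 were higher without Rn45s reads as well as after quantile normalization.

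**Figure D5:**
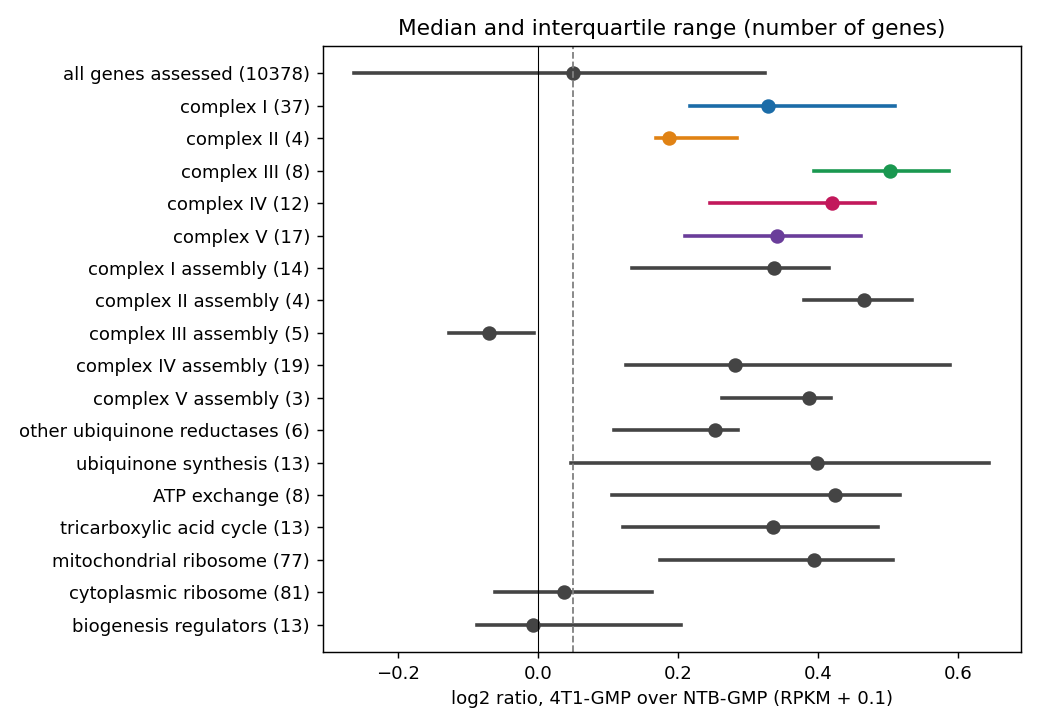
Median (point) and interquartile range (bar) of the log2 ratio of 4T1-GMP over NTB-GMP for each list, with the number of genes compared in brackets and a dashed line at the median of all genes (0.05). The 5 complexes lie between 0.19 and 0.50, and the lists for complex III assembly, the cytoplasmic ribosome and the biogenesis regulators lie between -0.07 and 0.04. Without Rn45s reads every point moves left by about 0.16, and after quantile normalization the median of complex II is -0.021.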

How the data were processed

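Bulk RNA-seq of purified GMPs gave 1 library for each of 2 groups. The authors deposited RPKM per gene symbol at full precision, for reads aligned to mm10. The submitters' processing notes name CASAVA 1.8.2, cutadapt 1.2.1, TopHat2 2.0.13, Picard 1.97, HTSeq 0.6.1 and edgeR 3.12.1. Strand settings and gene lengths are not given in the sources used here. RPKM are relative to a divisor for each library. Where that divisor follows the read total, a gene that takes many reads in 1 library lowers the rest.

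Ratios of the RPKM could be written as ratios of whole reads for 14833 of the 14833 genes above 0 (largest relative error 9.3e-15). Genes at 0 in 1 library have no such ratio and fit by rule, so they do not bear on the recovery. For some genes the recovered reads may be too low by a factor shared by both libraries, and the interval is then too wide. The divisors, 10180365.24 and 30016262.80, were not whole numbers, so they are not plain read totals. They may be scaled library sizes, and taking Rn45s reads out of them then gives only an approximate scale. Log2 ratios used a pseudocount of 0.1, genes with a mean of at least 1 RPKM and a threshold of 1.2-fold, and the steps were tested on simulated data. Symbols were placed on GENCODE M21 (GRCm38), where exons of 27 members overlap a gene on the other strand and those of 5 a gene on the same strand. Near-identical copies were sought by BLAST against GENCODE transcripts.

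The members, lists and thresholds were chosen with earlier results of these data known. Named members were, in each complex, the 2 highest by level and the 3 largest and 3 smallest ratios, all members of paralog sets, all below 1 RPKM and all lower by 1.2-fold. In other lists the largest and smallest ratios were named, with Dhodh, Cyc1 and Cycs. A member entered the counts and medians but is not reported by itself here. Other core subunits of complex I, Uqcr11, Atp5e, Gabpa, Tfam, Nrf1, Yy1 and the small ATP synthase proteins were added after their values were seen. Alternatives were pseudocounts of 1 and 0.01, other scalings, other minimum levels, narrower membership, means in place of medians and, chosen after seeing the data, leaving out members with a near-identical copy. The software was scipy 1.17.1, pandas 2.3.3 and numpy 2.4.6 under Python 3.11.15.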

Additional observations from a re-analysis of the deposited data

How the results depend on the processing

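There were no replicates, so the limits here are those of counting and scaling. Removing Rn45s reads and centering move all genes together. Among the scalings, only quantile normalization could therefore change the order of the complexes or the gap between members and all genes. There complex III had the highest median and the gap fell from 0.30 to 0.10. The gap also changed with the minimum level, to 0.22 at 10 RPKM and 0.33 with all genes above 0 RPKM. Without Rn45s reads in the divisors the median of the members was 0.19, 30 members were higher by at least 1.2-fold, and the medians of complexes I, II and V were 0.17, 0.024 and 0.18. Centered on the median of all genes, the medians of complexes I and II were 0.28 and 0.14. After quantile normalization the median of the members was 0.10, 20 members were higher by at least 1.2-fold, and the medians of complexes I, II, IV and V were 0.10, -0.021, 0.15 and 0.10. The number lower by at least 1.2-fold was 4 with all genes above 0 RPKM, 1 with a minimum of 10 RPKM and 1 without the members that are not subunits. With a pseudocount of 1 the medians of complexes I to V were 0.32, 0.19, 0.50, 0.42 and 0.34, and with 0.01 they were 0.33, 0.19, 0.50, 0.42 and 0.34. Without members that have a near-identical copy they were 0.33, 0.19, 0.45, 0.39 and 0.34. The means of complexes I to V were 0.38, 0.27, 0.46, 0.30 and 0.32. By the mean, complex III was still highest and complex II lowest, but complex IV fell below complexes I and V.

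For single genes among those named, the direction reversed without Rn45s reads for Atp5e (-0.021), Atp5h (-0.072), Ndufa1 (-0.15), Ndufa6 (-0.15), Ndufs7 (-0.016), Sdhc (-0.019), Uqcrh (-0.093), Atpif1 (-0.013), Ogdh (-0.14), Tmem70 (-0.022), Uqcc1 (-0.064) and Yy1 (-0.16). Centering reversed Ndufa1 (-0.033), Ndufa6 (-0.040), Ogdh (-0.029) and Yy1 (-0.049). Quantile normalization reversed Atp5e (-0.11), Atp5h (-0.18), Atp5s (0.042), Cox4i1 (-0.13), Cox8a (-0.032), Ndufa1 (-0.21), Ndufa6 (-0.23), Ndufs7 (-0.064), Sdha (-0.012), Sdhb (-0.030), Sdhc (-0.058), Uqcrh (-0.15), Atpif1 (-0.091), Ogdh (-0.17) and Yy1 (-0.17). Of the 74 genes run under these alternatives, 41 more without Rn45s reads, 2 more with centering and 36 more after quantile normalization moved beyond their counting interval in the same direction. The cause was not tested. No paired analysis was possible because only 1 library stood for each group.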

Other observations

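The nuclear regulators of mitochondrial biogenesis went in both directions, with shares near those of all genes. Of 13 compared, 6 (46.2%) were higher and 7 lower in 4T1-GMP, against 54.7% of all genes higher. Their median log2 ratio was -0.0069, against 0.05 for all genes. Past 1.2-fold, 3 were higher and 3 lower, against 30.0% and 24.9% of all genes. Without Rn45s reads 4 were higher, against 39.2% of all genes. Nrf1 itself had 10.7 RPKM in both libraries (-0.0099), Yy1 had 40.7 RPKM in both (0.0013) and Gabpa had 22.4 and 27.3 RPKM (0.28), although Gabpa shares exon sequence with Atp5j on the other strand. Esrra, which encodes an orphan nuclear receptor that activates respiratory genes, had the largest ratio, with 8.19 and 11.6 RPKM (0.50, interval 0.27 to 0.74), and Tfam, which packages mitochondrial DNA, had 9.85 and 11.9 RPKM (0.28). Myc had the lowest, with 138 and 108 RPKM (-0.36, interval -0.42 to -0.31). Ppargc1a, the coactivator known from muscle and brown fat, was listed at 0.0302 RPKM (2 reads) and 0. Nrf1, Yy1 and Gabpa are given because their letters were searched for in the promoters.

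Small proteins of the ATP synthase that the name rule missed were higher in 4T1-GMP as deposited, though Atpif1 was lower without Rn45s reads and after quantile normalization. Usmg5, which encodes a membrane subunit, had 119 and 194 RPKM (0.70, interval 0.55 to 0.86), and 2010107E04Rik, which encodes a proteolipid of the complex, had 116 and 173 RPKM (0.57, interval 0.42 to 0.73). Atpif1, the inhibitor that stops the enzyme from running backward, had 91.8 and 102 RPKM (0.15, interval 0.06 to 0.24). The 11 members with a near-identical copy elsewhere in the transcriptome had a median of 0.46, with 11 higher, and the 67 without one had a median of 0.34, with 62 higher.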
